A study of Mus musculus with 60 samples.

Results

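Nascent transcription of 10 mouse genes was followed through the removal of CTCF, of the cohesin subunit RAD21 and of CBP/p300 activity. The genes were Nle1, Bysl, Rbm17, Wdr70, Ttc5, Tab1, Timm22, Kctd6, Dennd6b and Adprhl2, taken by name from 27665 transcripts in the count table. They had been put together as genes activated by CTCF at their promoter, with the CTCF depletion results of these libraries and their responses to RAD21 loss and A-485 in view. The comparisons of treated with control cells, and those between treated groups, are therefore given for the 10 genes as a description with no test, and nothing is read from how many of them passed. Tests are given between untreated lines and cell types and for genes outside the 10. The former reuse control libraries of the treated comparisons, and the gene lists were made with earlier results known. These tests are therefore not independent of the choice either. Of the 10, 8 had the direction that the label names, which their choice had in view, and CTCF binding was not measured here. Those 8 were lower after every removal of all CTCF, whereas Timm22 stayed near its control level and Kctd6 was higher. Whether cells need the genes was not measured here.

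CTCF is a zinc finger protein best known for stopping cohesin, the ring complex that extrudes chromatin loops, at its binding sites. It also binds close to the start sites of many genes, where it can act as a transcription factor in its own right. CBP and p300 are acetyltransferases that act mainly at enhancers and at the promoters those enhancers serve. The 10 genes have unrelated roles. Nle1 and Bysl assemble the large and the small ribosomal subunit, Rbm17 is a splicing factor, and Wdr70 is a WD repeat protein linked to the DNA damage response. Ttc5 is a p300 and p53 cofactor that also takes part in tubulin mRNA decay. Tab1 activates the kinase TAK1, Timm22 forms the carrier translocase channel of the mitochondrial inner membrane, and Kctd6 is a substrate adaptor of the CUL3 ubiquitin ligase. Dennd6b is a DENN domain exchange factor for a Rab GTPase, and Adprhl2 removes ADP-ribose from serine.

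All libraries were EU-seq, in which RNA made during a 20 min pulse of 0.5 mM 5-ethynyl uridine is captured and sequenced, and all cells derive from E14 mouse embryonic stem cells (mESCs). CTCF-AID mESCs carry CTCF fused to an auxin-inducible degron and were left untreated or given 500 µM indole-3-acetic acid (IAA) for 6 h, with 4 libraries each, 2 unstranded and 2 stranded. CTCF-YF-AA mESCs carry only a dTAG-tagged CTCF whose cohesin-binding tyrosine and phenylalanine are alanines, and had no drug or 200 nM dTAG-13 for 2 h or 4 h. The line bTAG-ΔN-CTCF/dTAG-CTCF-ΔC holds CTCF without its N terminus on one allele and without its C terminus on the other, both with the zinc fingers, so that its control cells also lack full-length CTCF. In it, AGB1 at 100 nM removes the ΔN protein, dTAG-13 removes the ΔC protein, and both drugs together remove all CTCF, each for 2 h. RAD21-AID mESCs were compared with and without 500 µM IAA for 4 h in an initial experiment of 2 libraries a group and an additional one of 12 a group. Neural progenitor cells (NPCs) made from RAD21-AID mESCs had IAA for 1, 2 or 4 h, or 10 µM A-485, an inhibitor of CBP/p300, for 1 h. Groups other than those named with 4 or 12 libraries held 2. How many clones stand behind a line is not given in the sources used here. For CTCF depletion the paper names 2 biological replicates for the stranded and the unstranded preparation. Whether the 2 preparations share cultures, and whether other replicates were separate cultures, is not given. P-values therefore measure only the spread between these libraries.

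Column totals ran from 4027449 to 21898781 reads. Pou5f1, a defining mESC gene, was at 590 to 679 TPM (reads per length of gene body, as a share of the library) in the 12 additional mESC controls and at 1.59 to 1.64 in the NPC controls, and Fabp7, an NPC gene, was at 0 in every mESC control and at 775 to 849 in NPCs. Degrons act on protein, and the RNA of the targets did not show the labels: Ctcf had a log2 fold change of 0.05 after CTCF-AID depletion (SE 0.09, adjusted p = 0.955 by edgeR) and Rad21 of -0.01 in the additional mESC experiment (SE 0.02, adjusted p = 0.505). The 2 stranded CTCF-AID replicates differed most from each other, with a chi-square per gene of 38.16 in controls and 31.04 after IAA, against 4.98 and 7.85 for the unstranded ones. With the stranded libraries left out, log2 fold changes of the 10 genes lay between -3.22 (Dennd6b) and 0.82 (Kctd6), and the same count of 6 was called as with all 8 libraries. In the additional RAD21 experiment, replicate 1 of both groups carries the code CC52 and the others CC53, used here as a batch label. No gene of the 10 was called with or without replicate 1.

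Promoter sequence was read from RefSeq windows reaching 250 bases before to 50 bases after a start site (GRCm38.p6), which exist here for 9 of the 10 genes and not for Tab1. Each window was searched on both strands for the CTCF core consensus of 14 positions. For each gene the window nearest to its counted start was used. The stretches below hold the best match there of the 5 genes with at most 2 mismatches, and that of Ttc5 with 3, to show the promoter letters of genes that were lower without CTCF. All 6 genes lie on the minus strand of mm10. Sequences run 5′ to 3′ on the strand of the gene, and capitals mark the matched positions.
Adprhl2, chr4:126321716-126321789, 1 mismatch: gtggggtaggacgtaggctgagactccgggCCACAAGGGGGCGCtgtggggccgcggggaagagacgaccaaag
Dennd6b, chr15:89196480-89196553, 2 mismatches: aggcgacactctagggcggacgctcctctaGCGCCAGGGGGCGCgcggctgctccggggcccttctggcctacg
Nle1, chr11:82908408-82908481, 2 mismatches: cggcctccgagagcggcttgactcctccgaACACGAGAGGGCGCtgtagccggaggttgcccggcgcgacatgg
Wdr70, chr15:8099244-8099317, 2 mismatches: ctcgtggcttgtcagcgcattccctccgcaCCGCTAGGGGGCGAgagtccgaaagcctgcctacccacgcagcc
Rbm17, chr2:11603280-11603353, 2 mismatches: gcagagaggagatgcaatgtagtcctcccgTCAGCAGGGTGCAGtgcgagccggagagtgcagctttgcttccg
Ttc5, chr14:50785533-50785606, 3 mismatches: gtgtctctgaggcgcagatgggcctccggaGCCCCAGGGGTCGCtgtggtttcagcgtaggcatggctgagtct

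The 5 matches with at most 2 mismatches all read on the strand of the gene and were centred 42 to 117 bases before the RefSeq start. Of all 32851 windows, 14.374% held a match with at most 2 mismatches on either strand, and 6.94% held one on the strand of the gene before the start. At most 1 mismatch, as in Adprhl2, occurred in 2.28% of windows. The best matches of Nle1, Ttc5 and Adprhl2 were all centred at 49 bases before the start. Bysl had 3 mismatches at 170 bases before the start, and 58.111% of windows held a match that good. Timm22 and Kctd6 also had 3 mismatches in the window nearest to their counted start, in Timm22 on the other strand at 196 bases before the start and in Kctd6 at 36 bases after it. RefSeq gives Timm22 a total of 2 windows and Kctd6 3, and in another of them each had a match with 2 mismatches. A match is a description of letters and says nothing here of CTCF binding. GC content of the windows ran from 49.7% (Timm22) to 71.0% (Kctd6) against a median of 52.7% over all windows, and all 9 held more CpG dinucleotides (9 in Ttc5 to 33 in Kctd6) than the median window with 7.

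**Figure D1:**
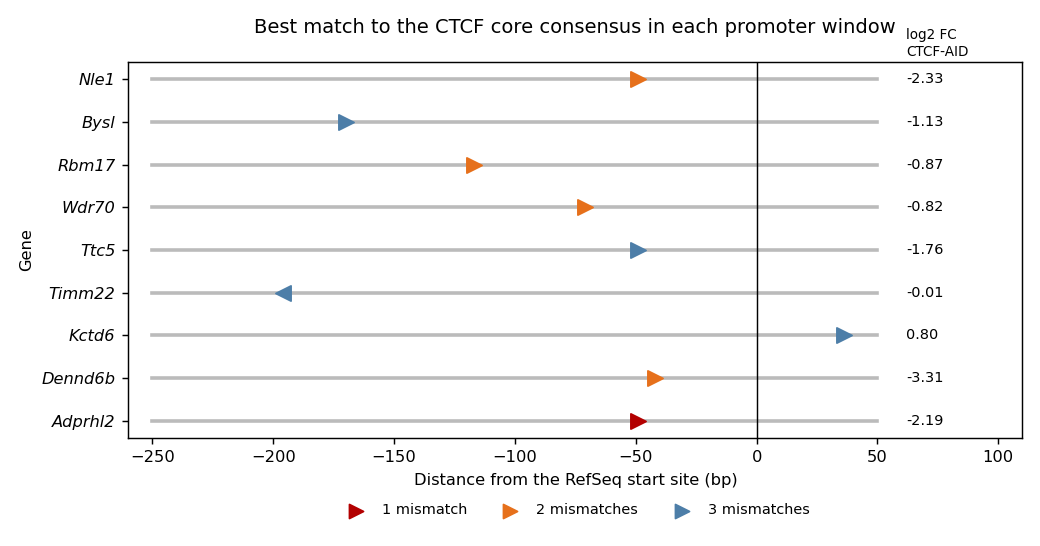
Position of the best match to the CTCF core consensus in the RefSeq promoter window nearest to the counted start of 9 genes, as distance from the start site in bases; triangles point along the strand of the match, colour gives the number of mismatches, and the log2 fold change after CTCF-AID depletion stands at the right. The 5 matches with at most 2 mismatches lie 42 to 117 bases before the start, that of Timm22 lies farthest upstream and that of Kctd6 after the start; other windows of these 2 genes are not drawn.

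The genes are spread over 6 chromosomes of mm10, with 3 on chromosome 15 and 2 each on 11 and 14. Adprhl2 has the shortest body (4:126316047-126321703, minus strand, 5.66 kb, 6 exons), followed by Nle1 (11:82900768-82908411, minus, 7.64 kb, 13 exons), Timm22 (11:76407143-76416292, plus, 9.15 kb, 4 exons) and Kctd6 (14:8214140-8223563, plus, 9.42 kb, 3 exons). Bysl (17:47599331-47611492, minus, 7 exons) spans 12.16 kb and Dennd6b (15:89182213-89196448, minus, 20 exons) 14.24 kb, near the median of 14402 bp over all matched gene bodies. Rbm17 (2:11585437-11603262, minus, 12 exons) spans 17.83 kb, Ttc5 (14:50765415-50785519, minus, 10 exons) 20.1 kb and Tab1 (15:80133127-80161707, plus, 11 exons) 28.58 kb. Wdr70 (15:7873062-8099191, minus, 18 exons) is the only gene of the 10 longer than 90 kb, at 226.13 kb, which matters below where counting stopped at the first 90 kb.

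Before depletion, CTCF-AID control cells transcribed Rbm17 at 101.3 ± 12.8 TPM, Kctd6 at 100.9 ± 22.9 and Nle1 at 99.5 ± 23.5 (SD, n = 4). Bysl followed at 86.8 ± 6.83 TPM and Adprhl2 at 72.2 ± 12.9. Tab1 (57.4 ± 18.5), Timm22 (51.7 ± 5.33) and Ttc5 (51.6 ± 16.6) came next, then Dennd6b at 31.3 ± 8.27 and Wdr70 at 13.3 ± 4.69 TPM. Neighbours in this order differed by less than the sum of their SDs except Dennd6b and Wdr70. The SDs include the difference between unstranded and stranded libraries.

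After CTCF-AID was depleted for 6 h, 8 of the 10 genes had all 4 treated libraries below all 4 controls, Kctd6 had all 4 above, and Timm22 overlapped. Of all 15611 genes tested, 8.46% had groups that did not overlap in either direction. The count of members called lower, with an adjusted p under 0.05 and at least a 2-fold change, was 6, where 0.890% of all genes tested were called lower. With no limit on fold, 8 were lower and 1 higher, where 3.58% of all genes passed in either direction (29.2% with the replicate number as a block, with the same 8 and 1). Nothing is read from these counts, since the contrast was used to choose the genes. Their median log2 fold change was -1.45, against 0.02 over all genes tested. Log2 fold changes are centred on the median of expressed genes throughout, and levels of a gene across libraries are in CPM, the counts of the gene relative to the library total after scaling between libraries. In these bulk libraries, fewer cells of a type and less RNA per cell cannot be told apart.

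Nle1, which takes part in maturing the large ribosomal subunit, was at 45.5 and 47.4 CPM in the unstranded controls and 57.5 and 44.5 in the stranded ones, and at 9.72, 9.09, 10.2 and 8.87 CPM without CTCF. The groups were far apart, and the fitted level was 19.9% of control (log2 fold change -2.33, SE 0.12). Bysl, its counterpart in small subunit assembly, was at 77.5, 74.7, 64.9 and 58.9 CPM in controls and 28.2, 37.3, 31.5 and 25.8 without CTCF, which is 45.6% of control (log2 fold change -1.13, SE 0.11). Rbm17, the splicing factor, lay between 102.9 and 129.0 CPM in controls and between 56.5 and 68.1 without CTCF, or 54.7% of control (log2 fold change -0.87, SE 0.09).

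Tab1, the TAK1 activator, went from 84.8, 103.5, 106.9 and 118.6 CPM to 24.8, 31.6, 25.7 and 33.5, or 28.8% of control (log2 fold change -1.80, SE 0.13). Ttc5 was at 61.4, 57.3, 67.3 and 75.03 CPM in controls and 19.0, 16.7, 20.2 and 19.5 without CTCF, or 29.6% (log2 fold change -1.76, SE 0.08). Wdr70 was at 174.3, 165.7 and 186.7 CPM in 3 controls and higher still in the fourth, and lay between 91.4 and 111.1 without CTCF, or 56.5% (log2 fold change -0.82, SE 0.09). The lowest control of each of these genes was above its highest treated library, and Wdr70 and Rbm17 were the 2 genes of the 8 with the smallest differences.

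Dennd6b had the largest difference of the 10. Its controls were at 28.2, 25.3, 29.9 and 29.9 CPM, and its depleted libraries at 3.17, 2.35, 4.01 and 1.84, or 10.1% of control (log2 fold change -3.31, SE 0.23). These levels rest on few reads, 325 to 606 a library in controls and 31 to 48 without CTCF. Adprhl2, the serine ADP-ribosylhydrolase, went from 25.1, 27.7, 28.5 and 23.9 CPM to 5.16, 6.36, 5.90 and 5.19, or 21.9% of control (log2 fold change -2.19, SE 0.13).

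Timm22 and Kctd6 stood apart from the rest. The paper places Kctd6 among genes whose transcription rose without CTCF. Timm22 it places among genes where antisense transcription upstream of the start rose, which was not measured here. Timm22 was at 35.2, 32.7, 32.3 and 23.9 CPM in controls and 31.1, 32.9, 29.98 and 26.2 without CTCF, with a log2 fold change of -0.01 and a 95% interval of -0.28 to 0.26. Kctd6 was at 56.1, 66.3, 57.4 and 63.9 CPM in controls and 98.0, 112.3, 99.0 and 106.0 without CTCF, or 174.5% of control (log2 fold change 0.80, SE 0.09). The lowest depleted library of Kctd6 was well above its highest control.

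**Figure D2:**
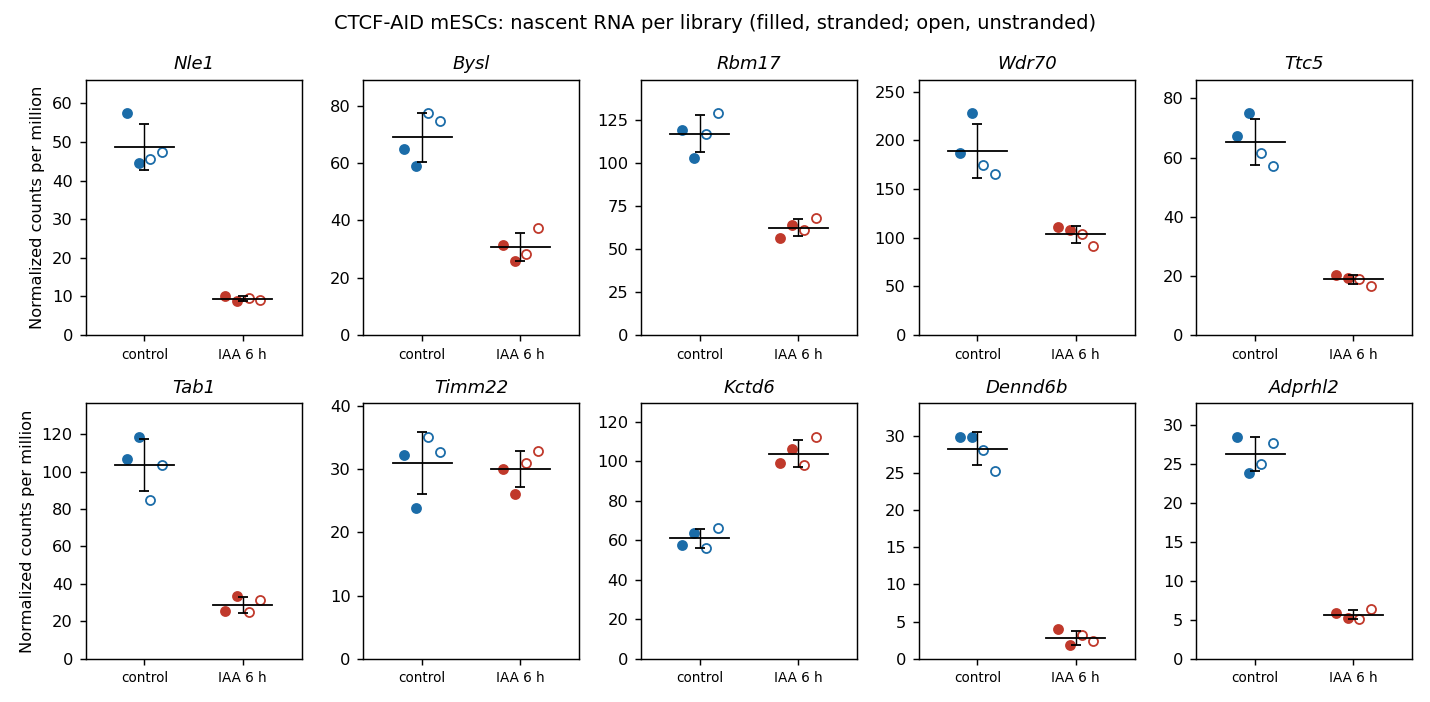
Scaled CPM of each gene in the 4 control and 4 IAA libraries of CTCF-AID mESCs, 1 panel a gene; filled points are stranded and open points unstranded libraries, and bars give mean ± SD. For 8 genes all IAA points lie below all controls, for Timm22 they overlap, and for Kctd6 they lie above.

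CTCF-YF-AA cells ask whether the same genes respond when the CTCF that is removed already lacks its cohesin-binding residues. The pattern of the 10 genes was the one seen in CTCF-AID cells, at shorter times. At 2 h of dTAG-13, 6 were called lower (0.664% of 14009 genes tested), and 8 were lower and 1 higher with no limit on fold (3.94% of all genes in either direction). At 4 h, 6 were called lower (0.791% of 14280 genes), and again 8 were lower and 1 higher (4.99% of all genes). Both times share their controls, and both were used to choose the genes. The median log2 fold change of the 10 was -1.67 at 2 h and -1.71 at 4 h, against 0.01 over all genes tested at each time.

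Nle1 went from 46.5 and 55.6 CPM to 12.8 and 9.90 at 2 h and 10.8 and 9.28 at 4 h, with log2 fold changes of -2.23 and -2.37. Tab1 went from 80.8 and 73.3 CPM to 16.7 and 23.6, then 16.1 and 20.7 (log2 fold changes -1.85 and -2.03). Ttc5 went from 56.3 and 55.2 CPM to 15.3 and 14.95, then 14.4 and 13.4 (log2 fold changes -1.87 and -1.995). All 3 genes had reached most of their difference by 2 h.

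Wdr70, at 226.13 kb the longest of the genes, was at 183.4 and 173.8 CPM in controls, 55.6 and 67.3 at 2 h and 63.8 and 67.6 at 4 h. That is 35.6% of control at 2 h (log2 fold change -1.49), where CTCF-AID cells at 6 h were at 56.5%; the lines, tags and times differ, and the difference was not tested. Adprhl2 was at 23.5 and 31.9 CPM in controls, 7.67 and 4.95 at 2 h and 5.74 and 3.69 at 4 h (log2 fold changes -2.25 and -2.62). Dennd6b was at 16.02 and 13.4 CPM in controls and between 1.43 and 3.72 in the 4 treated libraries. Bysl (log2 fold change -0.77 at 2 h) and Rbm17 (-0.72) again had smaller differences, Timm22 was at -0.15, and Kctd6 went from 73.3 and 84.8 CPM to 113.0 and 109.8 at 2 h (0.48).

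Set against each other directly, 4 h and 2 h differed with an adjusted p under 0.05 in 0.127% of all genes with edgeR, and nothing is read from the members. Dennd6b was not tested there because its mean count was at most 20 at both times. The other 9 log2 differences lay between -0.38 for Adprhl2 (95% interval -1.04 to 0.28) and 0.07 for Wdr70 (-0.12 to 0.26).

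In the ΔN/ΔC line, each truncated CTCF can be removed alone. AGB1, which removes the ΔN protein and leaves ΔC, gave 5 members called lower (0.316% of 13619 genes tested) and, with no limit on fold, 8 lower and 1 higher (2.14% of all genes). Both drugs together gave 7 called lower (0.633% of 13753 genes) and again 8 lower and 1 higher (6.59% of all genes). These contrasts were used to choose the genes and share their controls with each other. With dTAG-13 alone, which removes the ΔC protein and leaves ΔN, 0.0808% of all genes passed with edgeR (11 genes). The log2 fold changes of the 10 lay between -0.08 (Kctd6) and 0.13 (Tab1). This contrast too was in view when the genes were put together, so nothing is read from how many members passed.

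Nle1 was at 21.9 and 19.7 CPM in ΔN/ΔC controls, 9.21 and 9.18 after AGB1, 17.1 and 23.1 after dTAG-13, and 4.05 and 3.51 after both. The dTAG-13 libraries bracketed the controls (log2 fold change -0.02, 95% interval -0.30 to 0.25), AGB1 left 44.5% of control, and both drugs left 18.3%. Tab1 was at 58.8 and 58.2 CPM in controls, 24.6 and 24.6 after AGB1, 59.9 and 67.4 after dTAG-13, and 14.8 and 14.2 after both. Its dTAG-13 interval ran from -0.03 to 0.29 on the log2 scale, AGB1 left 42.2% of control, and the level after both drugs was lower again. Wdr70 was at 197.6 and 191.3 CPM in controls, 115.8 and 123.9 after AGB1, 186.8 and 195.8 after dTAG-13, and 81.0 and 89.4 after both.

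Set side by side, both libraries after both drugs lay below both after AGB1 for Nle1, Tab1, Wdr70, Ttc5, Adprhl2 and Bysl. The log2 difference between the 2 treated groups was -1.28 for Nle1 (95% interval -1.72 to -0.84), -0.76 for Tab1 (-1.01 to -0.52) and -0.51 for Wdr70 (-0.63 to -0.38). Adprhl2 was at -0.53 (-0.98 to -0.07), Ttc5 at -0.32 (-0.62 to -0.03) and Bysl at -0.16 (-0.38 to 0.06), whereas Rbm17 was at 0.00 (-0.14 to 0.14). In this comparison 0.836% of all genes had an adjusted p under 0.05, and nothing is read from the members among them.

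Rbm17 was at 116.3 and 108.3 CPM in controls, 70.2 and 68.2 after AGB1, 109.7 and 117.5 after dTAG-13, and 67.9 and 71.9 after both, so that its libraries after AGB1 and after both drugs overlapped. Ttc5 was at 49.4 and 46.5 CPM in controls, 17 and 14.4 after AGB1, 56.4 and 48.1 after dTAG-13, and 13.2 and 11.8 after both. Adprhl2 was at 23.1 and 22.5 CPM, then 6.37 and 7.35, 23.7 and 24.9, and 5.25 and 4.27 in the same order.

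Bysl lay at 54.7 and 47.0 CPM in controls, 29.6 and 25.3 after AGB1, and 24.3 and 25.1 after both drugs. Dennd6b was low in this line to begin with, at 7.65 and 6.76 CPM in controls, and after AGB1 it had only 10 and 16 reads (20.0% of control), so it was not tested between treated groups. Timm22 had log2 fold changes of -0.03 after AGB1 and 0.06 after both, and Kctd6 went from 75.2 and 74.2 CPM to 96.8 and 96.9 after AGB1 (0.38) and 105.1 and 106.0 after both (0.49). Over the 10 genes the median log2 fold change was -1.03 after AGB1, 0.02 after dTAG-13 and -1.57 after both, against values within 0.005 of 0 over all genes tested.

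**Figure D3:**
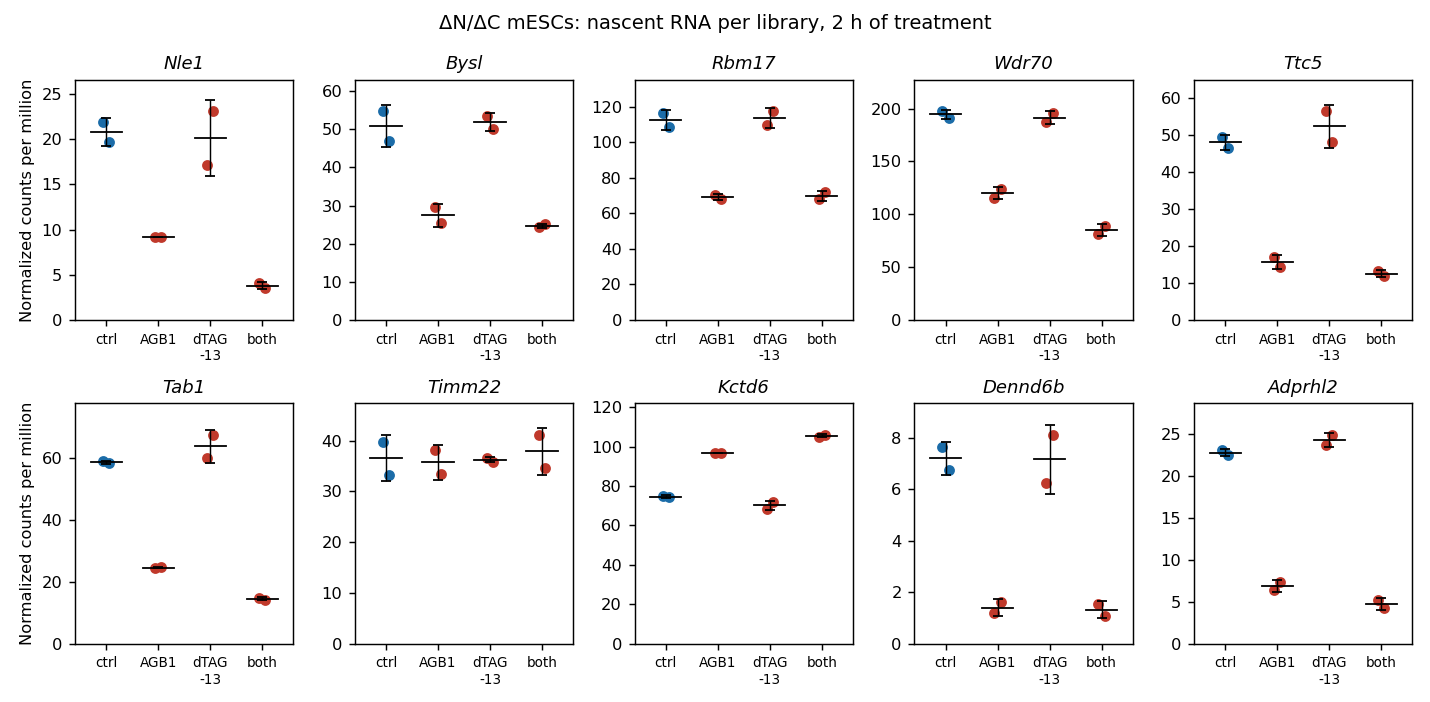
Scaled CPM of each gene in the 2 libraries of each ΔN/ΔC group (control, AGB1, dTAG-13 and both drugs, 2 h), with mean ± SD. The dTAG-13 points lie at control level for all 10 genes; for Nle1, Tab1, Wdr70, Ttc5, Adprhl2 and Bysl both points after both drugs lie below those after AGB1.

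The CTCF lines also differed at rest. Untreated CTCF-YF-AA cells, whose labels name no preparation, were set against the unstranded libraries of untreated CTCF-AID cells. Dennd6b was lower in CTCF-YF-AA (log2 difference -0.88, SE 0.16, adjusted p = 0.000491 by edgeR), while Bysl (0.20, adjusted p = 0.036), Rbm17 (0.25, adjusted p = 0.00827) and Kctd6 (0.40, adjusted p = 0.00287) were higher. In this test 47.7% of all genes passed. Of these, Dennd6b alone kept an adjusted p under 0.05 with each library left out in turn, and none of them was past 2-fold. Without the second CTCF-YF-AA control the adjusted p by edgeR was 0.187 for Bysl, 0.12 for Rbm17 and 0.0843 for Kctd6. In untreated ΔN/ΔC cells against untreated CTCF-AID cells (stranded libraries), Dennd6b (log2 difference -1.98, SE 0.19, adjusted p = 0.00492), Nle1 (-1.22, SE 0.20, adjusted p = 0.0148) and Tab1 (-0.87, SE 0.13, adjusted p = 0.0126) were lower, where 19.5% of all genes passed. Without the first or the second ΔN/ΔC control the tests of Nle1 (adjusted p = 0.0893 and 0.144) and Tab1 (0.203 and 0.225) missed the threshold, and Dennd6b was then the only gene of the 10 called. Without the first stranded CTCF-AID control, Rbm17 (0.22), Ttc5 (-0.56), Timm22 (0.71) and Kctd6 (0.32) passed in addition, and without the second, Bysl (-0.30), Ttc5 (-0.44) and Kctd6 (0.43) did. Line, experiment and CTCF allele cannot be told apart in these comparisons, nor can preparation in that with CTCF-YF-AA.

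Little response to RAD21 loss was part of what brought the 10 genes together, so their values after it describe that choice. In the initial mESC experiment, where 8.63% of all genes passed with no limit on fold, Rbm17 went from 89.6 and 88.7 CPM to 105.6 and 105.2 after 4 h of IAA, a log2 fold change of 0.25 (95% interval 0.10 to 0.40). Adprhl2 was at 0.40 (0.12 to 0.68), and the other 8 genes lay between -0.10 (Ttc5) and 0.18 (Kctd6).

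In the additional experiment, with 12 libraries a group, 58.3% of all genes passed. Tab1 had a log2 fold change of 0.14 (95% interval 0.09 to 0.20), Adprhl2 of 0.14 (0.07 to 0.21), Rbm17 of 0.07 (0.02 to 0.11) and Wdr70 of 0.06 (0.02 to 0.10). Bysl was at -0.10 (-0.14 to -0.05) and Ttc5 at -0.10 (-0.15 to -0.05). Every one of the 10 intervals lay between -0.15 and 0.21 on the log2 scale, and the median was 0.04 against 0.03 over all genes tested.

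Per library, no member had groups that did not overlap, where 12.8% of all genes did. Tab1 had a lowest, median and highest value of 54.7, 59.8 and 63.0 CPM in controls and 60.1, 63.7 and 72.0 after IAA. Ttc5 had 62.8, 66.1 and 69.6 CPM in controls and 56.1, 60.02 and 63.5 after IAA, with an overlap of less than 1 CPM. Dennd6b, the gene with the lowest level relative to control without CTCF-AID, had 28.6, 32.6 and 35.7 CPM in controls and 28.7, 32.6 and 37.3 after IAA. Nle1 had 66.8, 73.6 and 78.5 CPM in controls and 65.1, 74.4 and 77.3 after IAA, and its log2 fold change was 0.02 (SE 0.03, 95% interval -0.03 to 0.07).

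In NPCs, the log2 fold changes of the 10 genes after 1 h of IAA lay between -0.04 (Nle1) and 0.11 (Ttc5, 95% interval -0.02 to 0.25), where 15.7% of all genes passed. After 2 h, where 14.6% of all genes passed, Wdr70 went from 150.5 and 147.4 CPM to 134.2 and 116.7 (log2 fold change -0.29, 95% interval -0.46 to -0.13). After 4 h, where 39.5% of all genes passed, Wdr70 was at 131.2 and 127.5 CPM (-0.24, -0.32 to -0.16) and Bysl at a log2 fold change of -0.20 (-0.32 to -0.09). Tab1 was at -0.181 (-0.336 to -0.025) after 2 h and -0.116 (-0.22 to -0.011) after 4 h. After 4 h, Ttc5 went from 41.9 and 44.1 CPM to 49.8 and 49.3 (0.17, 0.04 to 0.29) and Dennd6b was at 0.22 (0.01 to 0.43). No log2 fold change of the 10 reached 2-fold at any time, and the 3 times share their control cells.

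The response to A-485 was also in view when the genes were put together. This drug moved much of the transcriptome (67.7% of all genes passed before and 62.6% after the fold changes were centred on the median of expressed genes), and the values here are those after centring, an alternative added after the data had been seen. Wdr70 had a log2 fold change of 0.52 (95% interval 0.39 to 0.65), Ttc5 of 0.44 (0.29 to 0.58), Nle1 of 0.37 (0.22 to 0.52) and Rbm17 of 0.21 (0.07 to 0.34). Dennd6b was at -0.52 (-0.78 to -0.27) and Tab1 at -0.17 (-0.31 to -0.03).

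The CPM of the libraries are scaled but not centred, and the centring shift was 0.124 on the log2 scale. In them, Wdr70 went from 94.3 and 97.5 CPM to 151.6 and 150.8, counted over the first 90 kb of its 226.13 kb body. Nle1 went from 39.7 and 41.1 CPM to 57.1 and 57.7, Ttc5 from 51.6 and 54.2 to 80.7 and 76.8, and Dennd6b from 16.97 and 19.5 to 13.5 and 14.3. Tab1 was at 98.5 and 90.6 CPM in controls and 90.9 and 93.9 after A-485, which do overlap. Intervals that held 0 were those of Bysl (0.04, -0.10 to 0.17), Timm22 (0.15, -0.01 to 0.30), Kctd6 (0.19, -0.04 to 0.41) and Adprhl2 (-0.02, -0.19 to 0.16). None of the 10 reached 2-fold. The median log2 fold change was 0.17, against -0.11 over all genes tested.

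**Figure D4:**
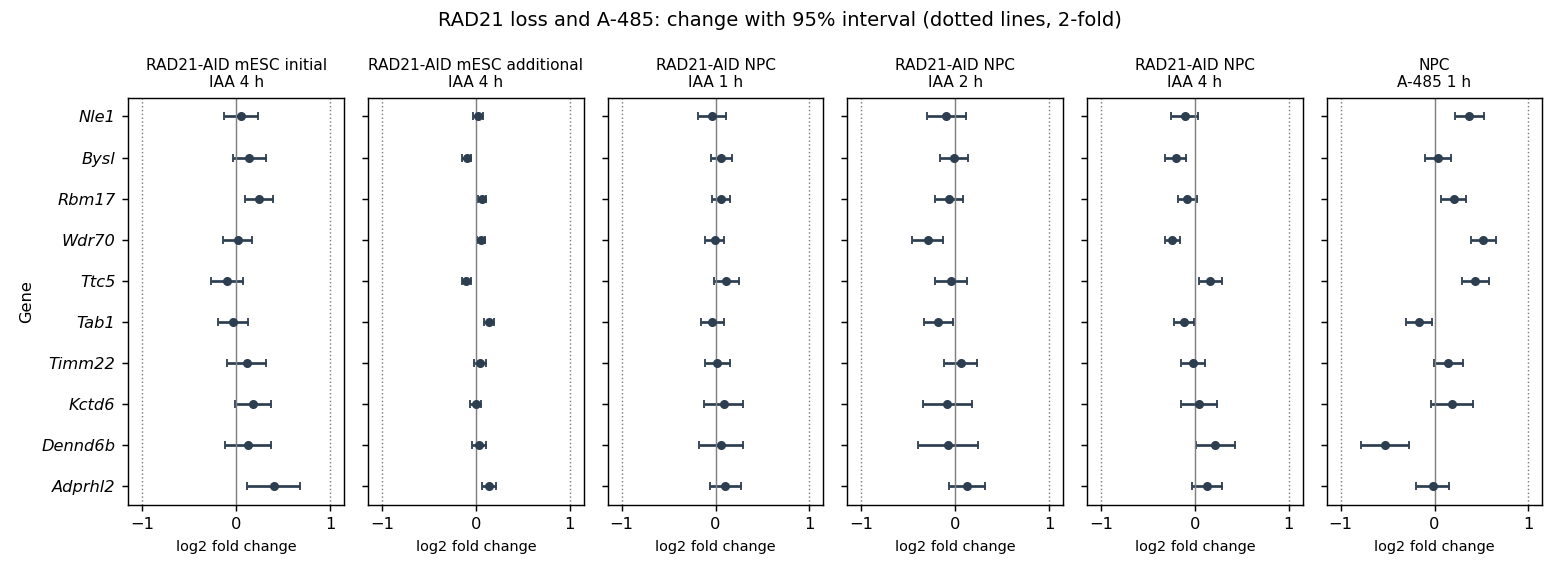
Log2 fold change of each gene with its 95% interval after RAD21 loss in mESCs (initial and additional experiments, 4 h) and in NPCs (1, 2 and 4 h) and after A-485 in NPCs; dotted lines mark a 2-fold change. All values lie inside the dotted lines, and the widest departures are Wdr70 at 0.52 and Dennd6b at -0.52 after A-485.

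The genes kept different levels in the 2 cell types. Against the 12 additional mESC controls, NPC controls had lower Kctd6 (log2 difference -1.16, SE 0.06, adjusted p = 3.41e-24 by edgeR), Nle1 (-1.08, SE 0.05, adjusted p = 4.03e-26) and Dennd6b (-1.04, SE 0.08, adjusted p = 9.68e-19), all past 2-fold, Dennd6b no longer so without the first NPC control. Ttc5 (-0.53), Wdr70 (-0.49), Rbm17 (-0.43) and Bysl (-0.43) were lower by less, Tab1 (0.45) and Adprhl2 (0.34) were higher, and Timm22 (0.20, adjusted p = 0.0709) did not pass. With 89.8% of all genes passing this test, 9 of 10 is near the background. Cell type and experiment cannot be told apart here.

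**Figure D5:**
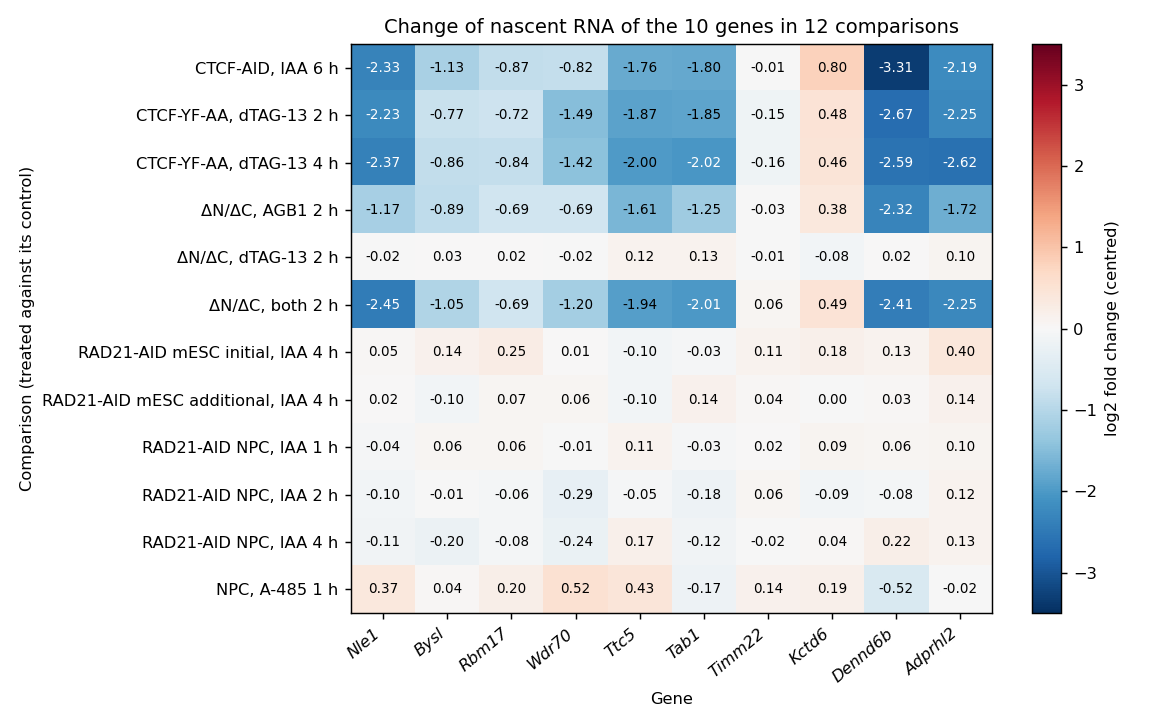
Log2 fold change of the 10 genes (columns) in the 12 comparisons of a treated group with its control (rows), with colour from lower to higher and the value in each cell. The CTCF rows are low for 8 genes in every comparison but dTAG-13 alone in the ΔN/ΔC line, and the RAD21 and A-485 rows stay between -0.52 and 0.52.

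Partners of the 10 genes in their pathways differed little after CTCF-AID depletion, and none of the ribosome, splicing, translocase and CUL3 partners reached 2-fold. Of 30 tested large subunit assembly factors, which act with Nle1, 0 passed with edgeR (7 at an unadjusted p under 0.05, 3 with DESeq2), and they ranged from Ddx18 at -0.31 to Rrs1 at 0.21 (median -0.07). Of 38 small subunit assembly factors, which act with Bysl, 0 passed (6 unadjusted, 2 with DESeq2; Nop56 -0.28 to Imp3 0.18, median -0.04). Of 23 U2 snRNP and splice site factors around Rbm17, 0 passed (2 unadjusted, 0 with DESeq2; Sf3a3 -0.23 to Sf3b5 0.21). Of 17 inner membrane translocase genes around Timm22, 0 passed (0 unadjusted, 0 with DESeq2; Pam16 -0.10 to Timm8b 0.23), and the same counts held for 15 genes of the CUL3 ligase and its KCTD adaptors (Kctd3 -0.17 to Kctd9 0.16). With the replicate number as a block, the share of all genes passing in either direction rose to 29.2%. There, 12 of the 30 large subunit, 9 of the 38 small subunit and 7 of the 23 splicing factors were lower and none was higher, with no gene of these lists past 2-fold.

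A few partners moved by more. Among 12 genes of the TAK1 branch, Traf6, a ubiquitin ligase upstream of TAK1, was at -0.87 after CTCF-AID depletion (SE 0.37, adjusted p = 0.269, or 0.00736 with the replicate block, by edgeR). It fell by 1.10 after 2 h of dTAG-13 in CTCF-YF-AA cells (adjusted p = 8.68e-16), by 1.19 after AGB1 (adjusted p = 7.2e-09) and by 1.27 after both drugs (adjusted p = 6.82e-11), and was the only gene of that list past 2-fold. Among 9 tested ADP-ribose writers and erasers, Parp3, an ADP-ribose polymerase, was at 0.80 after CTCF-AID depletion (adjusted p = 0.0805, or 0.00836 with the block, by edgeR). At 2 h in CTCF-YF-AA cells its log2 fold change was 2.79, from a mean of 4.5 reads a library in controls to 29.5. It passed the count limit there only through the treated group, so no test is given. Among 13 tested DENN domain genes, Dennd4b fell by 1.999 in CTCF-AID cells (SE 0.12, adjusted p = 0.000101) and Dennd5b rose by 0.53 (adjusted p = 0.019), with a list median of 0.06.

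After A-485, the 30 large subunit and 38 small subunit factors had median log2 fold changes of 0.14 and 0.20, against -0.11 over all genes tested. In the additional RAD21 experiment, the median was -0.09 for both lists, against 0.03 over all genes tested. Bysl was at -0.10 there and Nle1 at 0.02. The shares of all genes passing, 67.7% after A-485 and 58.3% after RAD21 loss, count both directions. Counts of these lists in a single direction could not be set against them and are not given. Other genes that the study had named as CTCF-activated, which were chosen on these or related samples and are not independent, had 8 of 11 called lower after CTCF-AID depletion (median -1.06, Mrpl23 lowest at -3.63), and of 4 named as CTCF-repressed 2 were called higher (median 1.08).

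The 10 genes also have neighbours on their chromosomes that were measured. Bysl shares its promoter region with Med20, a Mediator subunit gene whose start lies 90 bases away on the other strand. Med20 was at -0.18 after CTCF-AID depletion (SE 0.07, 95% interval -0.34 to -0.01, adjusted p = 0.2, or 0.0205 with the replicate block, by edgeR) and at -0.02 after 2 h in CTCF-YF-AA cells, where Bysl was at -1.13 and -0.77. The nearest tested gene on either side of each member, 20 in all and picked after the data had been seen, had a median log2 fold change of -0.05 in CTCF-AID cells, and 1 was called lower. With the block, where 29.2% of all genes passed, 8 of these 20 were lower and 3 higher at any size, and still 1 was past 2-fold.

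That gene was Fndc8, which overlaps the end of Nle1 by 34 bp on the other strand and fell by 2.11 (SE 0.37, adjusted p = 0.0492) beside Nle1 at -2.33. In unstranded libraries, reads of overlapping genes on opposite strands cannot be told apart. In CTCF-YF-AA cells Fndc8 fell by 2.29 at 2 h (adjusted p = 0.000511 by edgeR), and Pfkfb3, next to Rbm17 on the same strand, fell by 0.67 (adjusted p = 2.58e-07). In the stranded ΔN/ΔC libraries, Fndc8 had a mean count of at most 20 in every group and was not tested. Ccnd3, the cyclin gene that overlaps the end of Bysl by 353 bp on the other strand, was at -0.22 after CTCF-AID depletion (adjusted p = 0.655, or 0.00216 with the block). A shorter Ccnd3 transcript, with an overlap of 359 bp, was at -0.34 (adjusted p = 0.107 by edgeR).

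Over the 12 comparisons of treated and control cells, the genes nearest to the median profile of the 10 were looked for among 6857 genes expressed throughout, by Euclidean distance of log2 fold changes; several comparisons share controls, so this is a description. The nearest outside the 10 were 1700021F05Rik (distance 0.70), Zbtb39 (0.73), Csnk2a2 (0.76), Mrps2 (0.84) and Polr2c (0.90). Csnk2a2, a catalytic subunit of casein kinase, had -1.89 in CTCF-AID cells and 0.03 after dTAG-13 in the ΔN/ΔC line. Of the members, Tab1 (distance 0.83, rank 4) and Ttc5 (0.95, rank 9) lay closest to their own median, Timm22 ranked 939 and Kctd6 6795 of the 6857, and Wdr70 and Dennd6b were below the expression limit in some comparison and were not ranked.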

How the data were processed

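The 60 EU-seq libraries came as 1 table of counts with 62 columns, since the NPC controls were counted over whole genes and over the first 90 kb, as were 1 h IAA and A-485 over the first 90 kb only. Per the labels and methods the authors trimmed reads, aligned them to mm10 with BWA-MEME (supplementary alignments soft clipped), discarded poorly mapping reads with SAMtools 1.4 and those in rRNA or tRNA with bedtools, and deposited HTSeq counts per gene body. The transcript IDs were matched to GENCODE M21 (27455 of 27665), while the methods name a later release.

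Genes with a mean count above 20 in either group were fitted with edgeR 4.0.16 (R 4.3.3; TMM, quasi-likelihood F test, two-sided, Benjamini-Hochberg over all genes tested), with stranded or unstranded preparation as a covariate in CTCF-AID cells. Log2 fold changes were centred on the median of genes above 15 TPM. Called means an adjusted p under 0.05 and at least a 2-fold change. P-values refer to the change before centring, which matters where the shift is large (A-485), and the centred test stands beside it there. DESeq2 1.42.0 was an alternative. Scripts were tested on simulated data, and figures were drawn with matplotlib 3.10.9.

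The members and gene lists were chosen with earlier results of these data known, so treated against control values of the members carry no test. Text names all members, the degron targets, overlapping and head-to-head genes, the 5 genes of most similar profile and the extremes of each list. CTCF-AID replicates of the same number and library type deviated together (correlations of deviations 0.471 to 0.804 over 4 pairs), so the replicate block is given beside results it changes. Other same-numbered libraries did not meet that rule. No replicates agreed within sampling noise (lowest chi-square per gene 1.44). Promoter windows and consensus matches are from RefSeq on GRCm38.p6.

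Column totals of 4027449 to 21898781 reads bound the precision, which is lowest for Dennd6b. In the ΔN/ΔC line the labels give dTAG-13 at 100 nM and the column names 200 nM, and labels and column names number the mutated tyrosine of CTCF-YF-AA differently. Protocols of the first 18 libraries also mention DMSO and triptolide, which no title names. The alternatives tried were size factors, no filter, no centring, DESeq2, the replicate block, single library types, batch, 1 fit per line and each replicate left out.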

Additional observations from a re-analysis of the deposited data

Results flagged for a closer look

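For 3 of the 10 genes the value after 4 h of RAD21 loss differed between NPCs and mESCs by an interaction term in 1 edgeR fit over both cell types. In that fit 33.4% of 17538 genes passed, so 3 of 10 is near the background. Both contrasts were in view when the genes were put together, so nothing is read from this count. For Wdr70 the NPC minus mESC difference in log2 fold change was -0.284 (SE 0.055), from -0.24 in NPCs and 0.06 in mESCs. For Ttc5 it was 0.28 (SE 0.065), from 0.17 in NPCs and -0.10 in mESCs. Its NPC value on its own missed the adjusted p limit of 0.05 with DESeq2. The log2 fold change of Ttc5 in NPCs was 0.135 without the first control and 0.162 without the first IAA library. For Tab1 it was -0.243 (SE 0.067), from -0.12 in NPCs and 0.14 in mESCs. The 2 cell types were run as separate experiments with 2 and 12 libraries a group, so cell type and experiment cannot be told apart. No library of a member stood far enough from its group to be listed.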

How the results depend on the processing

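Of 175 counts of members or head-to-head neighbours called, recomputed under the alternatives, 171 stayed within 1.5 times the reported count. Many of them were 0 both times, which scores as unchanged. Of 1632 values of single members, 0 reversed with an adjusted p under 0.05. At any size of change, 54 lost an adjusted p under 0.05, 16 gained one and 66 changed sign with none. With stranded libraries only, 0 members were called after CTCF-AID depletion (0 of 14607 genes were, and Nle1 was at -2.40, adjusted p = 0.208 by edgeR). With unstranded libraries only, also 2 against 2, 177 genes were called lower and 232 higher. What separates the 2 library types was not tested. Without AGB1 replicate 2, 0 rather than 1 was called between both drugs and AGB1. Without ΔN/ΔC control replicate 1 or 2, 1 rather than 2 was called against CTCF-AID controls. With 1 library left out, the counts called were 6 to 6 (CTCF-AID, and CTCF-YF-AA at either time), 5 to 5 (AGB1), 6 to 7 (both drugs), 0 to 1 (both against AGB1), 1 to 2 (ΔN/ΔC against CTCF-AID controls), 2 to 3 (NPC against mESC controls) and 0 to 0 in the remaining comparisons with 2 to 4 libraries a group.

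The replicate block left 6 members called after CTCF-AID depletion and raised the genes passing from 559 to 4554 and those called higher from 88 to 320. Elsewhere the numbers are not shown to pair the libraries: it gave 3679 rather than 2328 genes for NPC 2 h, 332 rather than 115 for both against AGB1, 862 rather than 1310 for the initial RAD21 experiment, 21 rather than 11 for dTAG-13 in the ΔN/ΔC line, and no member gained or lost a 2-fold call. In the additional RAD21 experiment 3 of 12 libraries correlated best with their own number. Crossing the numbers, which was added once the data had been seen, gave 1875 genes in the initial RAD21 experiment and 3496 in NPC 1 h. No paired analysis was possible because lines and cell types share no libraries in the comparisons between controls.

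Among other settings that moved counts over all genes by more than 1.5 times were DESeq2 (1105 rather than 559 for CTCF-AID, 244 rather than 552 and 331 rather than 713 for CTCF-YF-AA at 2 h and 4 h, 154 rather than 292 for AGB1, 361 rather than 907 for both drugs, 532 rather than 1310 and 1103 rather than 2496 for RAD21 loss in the initial and NPC 1 h experiments, 4080 rather than 6383 for NPC 4 h, 26 rather than 115 for both against AGB1), no library covariate (295) and unstranded libraries only (1146) for CTCF-AID, no count filter for the additional RAD21 experiment (200 called lower rather than 92 and 428 higher rather than 41) and 1 fit per line for NPC 1 h (1379). With 1 library left out, genes passing numbered 209 to 235 for CTCF-AID without an unstranded library and 364 without the first stranded IAA library, 455 or 449 for CTCF-YF-AA at 4 h without a treated library, 567 to 600 for both drugs without either control or the first treated library, 352 or 429 for the initial RAD21 experiment without an IAA library and 2039 without the first control, 1645 for NPC 1 h without the first control, 1163 to 4852 for NPC 2 h, 10 to 265 for both against AGB1, and 331 to 9637 rather than 2856 for ΔN/ΔC against CTCF-AID controls. Depth limits Dennd6b most, with 10 to 48 reads a library after CTCF loss.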
